A study of Mus musculus with 2 samples.

Results

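Cell cycle and DNA replication genes were examined as a group of 48, taken as the rows of the deposited table whose gene name was one of 48 listed symbols. All 48 were found, 1 row each, among 55401 gene rows. The list covers cyclins, cyclin-dependent kinases (CDKs) and their inhibitors, replication and mitosis genes, Myc and the E2F factors. The cells were myeloid-derived suppressor cells (MDSCs), immature cells of the myeloid lineage that dampen T cell responses. They were taken by magnetic sorting (MACS) from C57BL/6 mice bearing tumours of the mouse colon adenocarcinoma line MC38, and then spent 24 h in co-culture with MC38 cells. The mice were 8 weeks old, and both genotypes carried Mettl3fl/fl, floxed alleles of the gene for the enzyme that writes N6-methyladenosine on RNA. The control genotype had these alleles alone (1 library). The second genotype also had LysM-cre, a Cre placed at the lysozyme 2 locus and active in myeloid cells (1 library). One label of that sample says MC39 where the others say MC38. The design text speaks of biological replicates, but 1 sample per genotype is described here, and the labels do not give the number of mice or say whether they were pooled. In each pair of values below, the control comes first and the library labelled LysM-cre second.

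Total counts were 59506878 and 59393864. Mettl3 itself stood at 4.16 and 3.92 FPKM (fragments per kilobase of transcript, scaled to depth), on 1413 and 1333 counts. Scaling counts to the library total (CPM) gave a ratio, LysM-cre over control, of 0.945, with an exact 95% counting interval of 0.876 to 1.02. The row counts the whole gene, and which exons are floxed is not stated. Its value did not separate the genotypes beyond counting error, and the second library is therefore called the library labelled LysM-cre throughout. Since each genotype had 1 library, no test of genotype was possible and no p-value is given. Ratios in brackets below are such CPM ratios, followed by their 95% interval, which compares these libraries only and covers counting error alone.

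The cell cycle is driven by cyclins, whose levels oscillate, and by the CDKs they switch on. D-type cyclins with Cdk4 or Cdk6 inactivate the retinoblastoma protein, which frees E2F factors to switch on genes for DNA replication. Cyclins E and A with Cdk2 then drive replication, and cyclin B with Cdk1 drives mitosis. Mature neutrophils and most monocytes have left the cycle, whereas their precursors divide.

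As a group, the 48 genes had nearly the same summed FPKM in both libraries, but a slightly lower share of the counts in the second. The D-type cyclin gene Ccnd3, 1 abundant member, was more than 2-fold lower in the second. CPM ratios also passed 1.5-fold for Cdc6 (lower) and for Gins2 and Bub1 (higher), all 3 below 2 FPKM in both libraries. The share of all genes past 1.5-fold by CPM ratio was not computed, so these 3 have no background beside them. The sum over all 48 genes was 365.9 and 367.2 FPKM, a ratio of 1.00. Without Ccnd3 it was 340.8 and 356.5 FPKM, a ratio of 1.05. Summed counts of the 48 genes were 111863 and 105667, or 0.188% and 0.178% of all counts. Single genes ranged from 0.524 to 38.6 FPKM and rested on 181 to 14715 counts. Of the 48 genes, 44 averaged at least 1 FPKM and were compared by their log2 ratio of FPKM + 1. The exceptions were Ccne2, Cdc6, Tyms and Bub1. Among the 44, FPKM + 1 was at least 1.5-fold lower for 1 gene (Ccnd3) and at least 1.5-fold higher for 0 genes. Over all 12526 genes at that level, the shares were 3.28% lower and 3.19% higher. Over protein-coding genes they were 1.6% and 1.53%. A count of 1 lower gene in 44 (2.27%) is thus near the background.

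The median log2 ratio of the 44 genes was 0.01, against 0.00 for all genes. Their direction was evenly split, with 22 above and 22 below the control (50.3% of all genes and 50.7% of protein-coding genes were above). The counting interval of the CPM ratio lay wholly above 1 for 14 genes and wholly below 1 for 14. At this depth the same held for 30.1% and 29.7% of all genes and for 30.9% and 30.3% of protein-coding genes, so an interval that leaves out 1 is common and sets no member apart. The median size of the difference, without its sign, was 0.13 on the log2 scale for the 44 genes and 0.11 for all genes. It was under 1.1-fold for 50.0% of the 44 genes, against 57.3% of all genes and 63.4% of protein-coding genes. It was 0.16 for the 15 genes with under 1000 counts in a library and 0.10 for the 29 with 1000 or more in both.

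**Figure D1:**
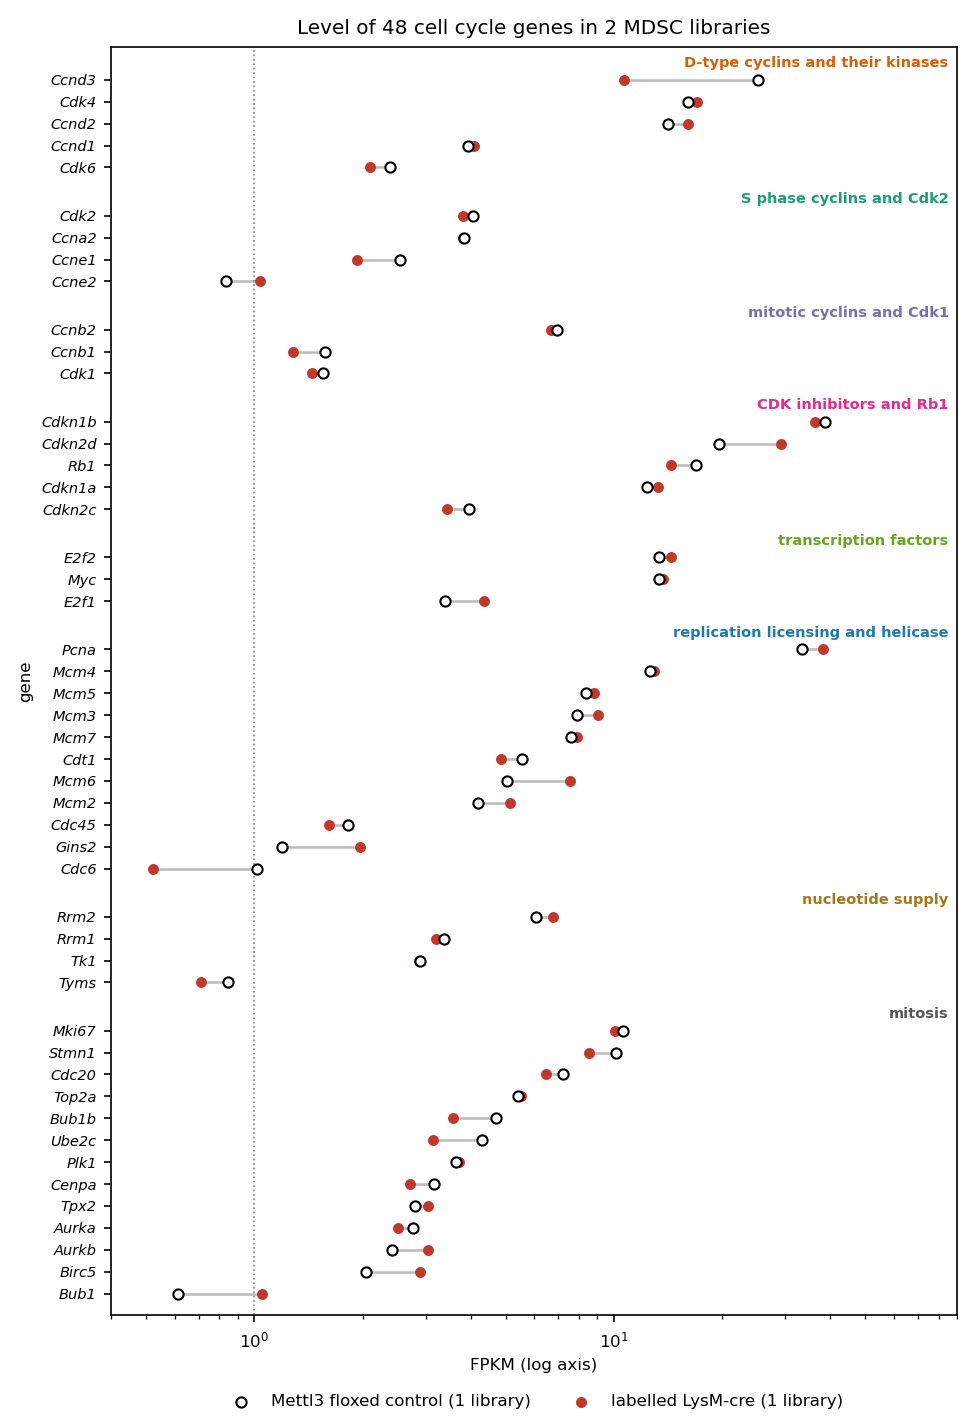
Level of each of the 48 genes in FPKM (log axis), ordered by role and by the control value, with the control library as open circles and the library labelled LysM-cre as filled circles. Most pairs of points nearly touch, and Ccnd3 spans the widest gap, from 25.1 to 10.7 FPKM. The dotted line marks 1 FPKM.

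**Figure D2:**
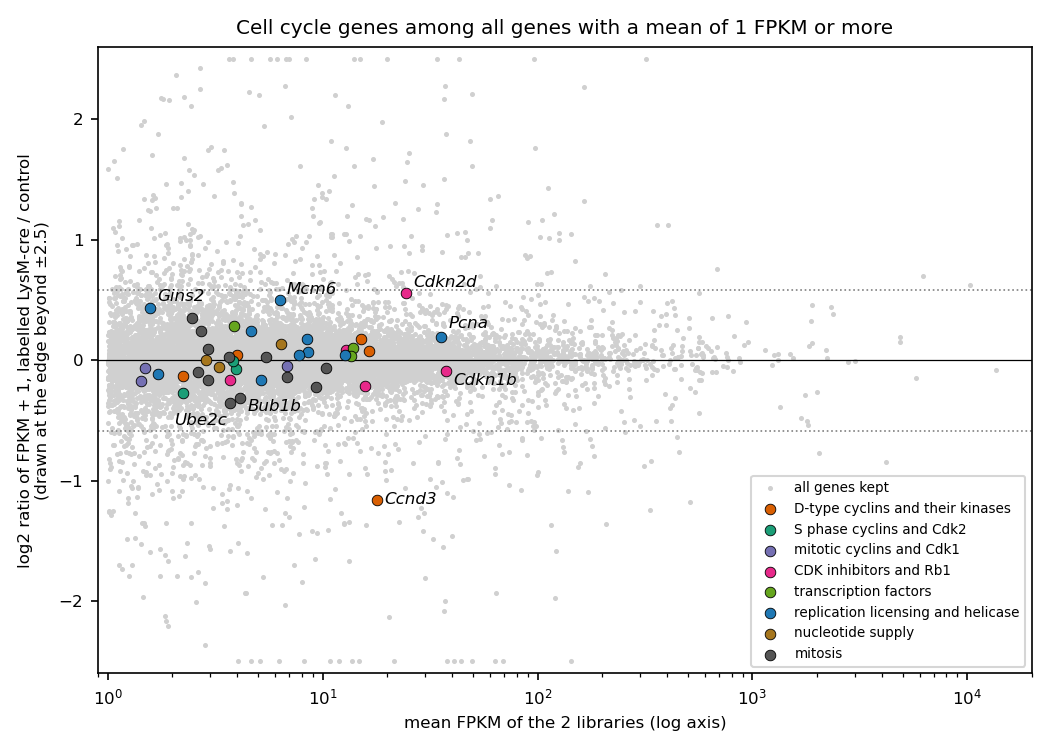
Log2 ratio of FPKM + 1 against mean FPKM (log axis) for all 12526 genes kept (grey) and for the 44 cell cycle genes kept (coloured by role). Dotted lines mark 1.5-fold, and 31 genes beyond 2.5 in either direction are drawn at the edge. Ccnd3 is the coloured point below the lower line.

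The libraries were not pure MDSCs, and bulk values cannot tell fewer cells of a type from less RNA per cell. Shared myeloid markers were present in both (all 7 at 1 FPKM or more; summed level 1994 and 2121 FPKM), including Itgam, which encodes CD11b. The 10 neutrophil markers summed to 10467 and 9300 FPKM, 8 of 10 lower in the second library, and the 10 monocyte and macrophage markers to 2455 and 2621, 7 of 10 higher. Markers of other blood cells were present as well. Precursor markers of granulocytes summed to 56.9 and 80.7 FPKM (5 of 6 at 1 FPKM or more were higher, among them Elane at 11.9 and 23.6). Below that level, the precursor marker Kit was lower (567 and 381 counts, ratio 0.673, 0.590 to 0.768). The interval of Cd34 spanned 1 (105 and 118 counts). Erythroid markers summed to 992 and 1387 FPKM (7 of 8 higher). B and plasma cell markers summed to 3346 and 2141 (9 of 10 lower, 4 of them with intervals that spanned 1). T and NK cell markers summed to 283 and 295 (3 of 7 higher). The lower B and plasma cell sum was set by Ighm, at 2848 and 1360 FPKM, while Jchain stood at 255 and 555. Without Ighm the list summed to 498 and 781. Tumour epithelial markers summed to 4.06 and 4.22 FPKM, 2 of 10 reached a mean of 1 FPKM, and Krt19, Krt20 and Cdx2 had 0 counts in both. Of the 2, Krt18 was higher in the second library (81 and 138 counts, ratio 1.71, 1.29 to 2.27). The interval of Cdh1 spanned 1 (543 and 528 counts). Epcam, below that level, was lower (153 and 115 counts, ratio 0.753, 0.586 to 0.965). The part of these cells in the values below was not tested.

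D-type cyclins start the cycle in response to growth signals, and each pairs with Cdk4 or Cdk6. Ccnd3, the D-type cyclin known for its part in neutrophil and lymphocyte expansion, stood at 25.1 and 10.7 FPKM on 14715 and 6247 counts. It was lower in the second library, where it still lay above 6.39 FPKM, the median of the 12526 genes that averaged at least 1 FPKM. The CPM ratio was 0.425 (95% interval 0.413 to 0.438), the log2 ratio of FPKM + 1 was −1.16, and the gene ranked 107 from the lowest of 12526. FPKM + 1 was at least 2-fold lower for 1.18% of all genes and 0.488% of protein-coding genes, and at least 2-fold higher for 1.31% and 0.576%. The row (ENSMUSG00000034165) spans chromosome 17, 47505051 to 47599689 on the plus strand of mm10. No other row overlapped it on that strand, and Bysl, which overlaps it on the opposite strand, held 1440 and 1108 counts. The processed copy Ccnd3-ps held 0 and 7 counts, far fewer than the gap between the Ccnd3 counts. Neutrophil markers were lower in the same library, with a summed ratio of 0.889. The B and plasma cell list had a summed ratio of 0.640 with Ighm and 1.57 without it, and a median log2 ratio of −0.09. The part of these cells in the Ccnd3 value was not tested.

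The other D-type cyclins did not share that difference. Ccnd2 stood at 14.1 and 16.1 FPKM (ratio 1.14, 1.11 to 1.17), and Ccnd1 at 3.93 and 4.07 (1.04, 0.957 to 1.12). The order of the D-type cyclins was therefore Ccnd3, Ccnd2, Ccnd1 in the control and Ccnd2, Ccnd3, Ccnd1 in the second library. Ccnd3 made up 58.2% of the summed D-type cyclin FPKM in the control and 34.6% in the other library, while the sum went from 43.1 to 30.8 FPKM. Their kinases were close in level. Cdk4 stood at 16.0 and 17.0 FPKM and Cdk6 at 2.39 and 2.09 (0.878, 0.825 to 0.933). Tspan31, which overlaps Cdk4 on the opposite strand, held 3057 and 3784 counts, and whether the counting used strand is not stated.

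Promoter sequence was set beside these levels because E2F and mitotic motifs mark most textbook cell cycle promoters. RefSeq windows (GRCm38.p6) of 300 bases, 250 before to 50 after a start site, were found for 37 of the 48 genes, 5 of them with 2 windows. The 3 motifs were searched on both strands. The E2F motif was written as TTTCCCGC, TTTCGCGC, TTTGGCGC or TTTGCCGC, the cell cycle homology region (CHR) as TTTGAA or TTCGAA, and the NF-Y box as CCAAT. Ccnd3 has 2 start sites 88.4 kb apart, shown here because it is the gene that differed most. The bases before each site are printed 5′ to 3′ on the gene strand, without any that fall in a GENCODE M21 exon, in lower case with motif matches in capitals. The first lies at chr17:47504801-47505050 and the second at chr17:47593217-47593435, both on the plus strand.
Ccnd3, first start: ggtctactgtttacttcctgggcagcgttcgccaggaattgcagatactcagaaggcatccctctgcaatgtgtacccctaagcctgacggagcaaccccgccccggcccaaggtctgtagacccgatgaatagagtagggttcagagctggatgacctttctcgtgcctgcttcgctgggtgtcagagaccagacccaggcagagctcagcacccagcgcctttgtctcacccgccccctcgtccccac
Ccnd3, second start: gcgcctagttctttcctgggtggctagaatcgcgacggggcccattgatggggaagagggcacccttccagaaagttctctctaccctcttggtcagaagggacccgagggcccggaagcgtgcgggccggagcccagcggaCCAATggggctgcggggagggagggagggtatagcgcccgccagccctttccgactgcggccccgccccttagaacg
Neither Ccnd3 window held an E2F or CHR match, and the second held 1 CCAAT match. The deposited counts do not say which start site the Ccnd3 reads came from.

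Cyclins of S phase and their kinase lay at or slightly below the control. Ccne1, which encodes cyclin E1 and acts at the entry into S phase, stood at 2.53 and 1.93 FPKM (ratio 0.761, 0.659 to 0.877). Its relative Ccne2 lay below the minimum at 0.833 and 1.04 FPKM and went the other way (ratio 1.24, on 196 and 242 counts). Ints8 overlaps Ccne2 on the opposite strand (1714 and 1891 counts), as Exosc9 does Ccna2 (945 and 911 counts). Ccna2, the cyclin A gene of dividing cells, was level at 3.82 and 3.81 FPKM (0.995, 0.912 to 1.09), and Cdk2 stood at 4.06 and 3.81. The mitotic set was similar. Ccnb2 stood at 6.97 and 6.69 FPKM, Ccnb1 at 1.57 and 1.28 (0.815, 0.707 to 0.938), and Cdk1, the kinase both of them activate, at 1.55 and 1.45 (515 and 478 counts, interval of the ratio 0.819 to 1.06). All 6 of these genes that reached the minimum were below the control, by at most 0.27 in log2 ratio of FPKM + 1. Over all genes, 50.3% were above the control. The intervals of Cdk2 (0.876 to 1.01) and Ccnb2 (0.863 to 1.07) spanned 1, as did those of Ccna2 and Cdk1. The processed copies were higher in the second library, Ccnb1-ps at 60 and 74 counts and Ccnb2-ps at 94 and 136. Their parents were lower there, Ccnb1 at 445 and 362 counts and Ccnb2 at 713 and 683. How reads that match both were assigned is not stated, so these values and their direction are uncertain.

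Of 5 genes that brake the cycle, 4 (all but Cdkn2c) had higher FPKM levels than every cyclin of S phase or mitosis in both libraries. Cdkn1b, which encodes p27 and holds cells in quiescence, had the highest level of all 48 genes in the control, with 38.6 and 36.3 FPKM (ratio 0.939, 0.915 to 0.964). Cdkn2d encodes p19INK4d, an inhibitor of Cdk4 and Cdk6. It was higher in the second library, at 19.6 and 29.3 FPKM on 2062 and 3070 counts (1.49, 1.41 to 1.58), just under the 1.5-fold mark. It lies on chromosome 9, 21288410 to 21291308 on the minus strand (ENSMUSG00000096472), with no overlapping row. Its sister gene Cdkn2c, which encodes p18INK4c, stood at 3.95 and 3.43 (0.868, 0.778 to 0.968). Cdkn1a, the p21 gene induced by p53, stood at 12.4 and 13.2 FPKM (1.07, 1.02 to 1.12). Rb1, the retinoblastoma gene, was lower at 16.9 and 14.4 FPKM (0.853, 0.823 to 0.883). Lpar6 and Rcbtb2 overlap Rb1 on the opposite strand and held 4331 and 4444 and 3062 and 3702 counts, against 6802 and 5790 for Rb1. The 5 genes thus had no common direction, with 2 above and 3 below the control.

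The transcription factors all lay above the control, by small amounts. E2f1, an activator of replication genes, stood at 3.40 and 4.36 FPKM (ratio 1.28, 1.16 to 1.42). E2f2, an activator with an overlapping role, was more abundant, at 13.4 and 14.4 FPKM (4360 and 4689 counts, interval of the ratio 1.03 to 1.12). Myc, which drives growth and ribosome production as well as cycling, was level at 13.3 and 13.7 FPKM (1.03, 0.970 to 1.09).

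**Figure D3:**
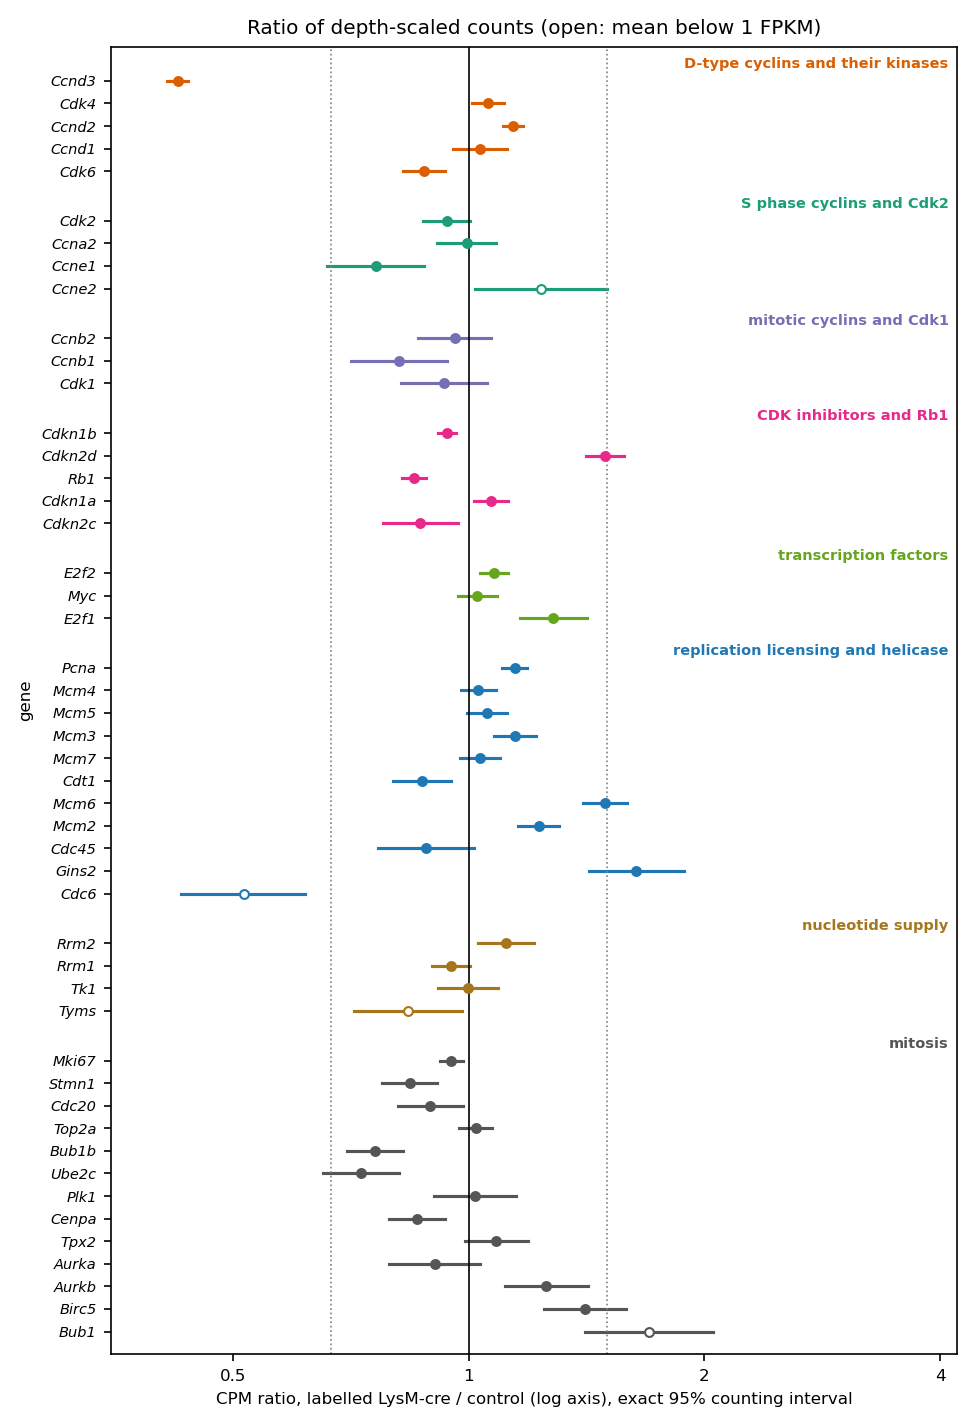
CPM ratio of each gene, library labelled LysM-cre over control (log axis), with the exact 95% counting interval as a bar. Open points had a mean below 1 FPKM and dotted lines mark 1.5-fold. Ccnd3 at 0.425 and Cdc6 at 0.516 lie left of the lower line, and Gins2 at 1.64 and Bub1 at 1.70 right of the upper one.

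Replication genes had a median log2 ratio of 0.12 over 10 genes, 8 of them above the control. The median was 0.07 with Cdc6 included and 0.07 over the 7 genes that averaged at least 5 FPKM. This group holds the Mcm2 to Mcm7 genes, whose products form the ring-shaped helicase loaded at origins. All 6 were above the control, with CPM ratios from 1.03 to 1.49, while 50.3% of all genes were above it. Mcm6 had the highest ratio of the 6, at 5.06 and 7.56 FPKM on 1580 and 2354 counts (1.49, 1.40 to 1.59). Mcm2 stood at 4.18 and 5.14 FPKM (1.23, 1.16 to 1.31) and Mcm3 at 7.90 and 9.06 (1.15, on 1982 and 2267 counts). The intervals of the other members spanned 1, with Mcm4 at 12.6 and 12.9 FPKM, Mcm5 at 8.36 and 8.83 and Mcm7 at 7.62 and 7.89. Cops6 (2590 and 2618 counts) and Ap4m1 (2176 and 2327) overlap Mcm7 on the opposite strand, against 2255 and 2329 counts for Mcm7. Subunits of 1 complex thus differed unequally, and their summed level went from 45.7 to 51.4 FPKM, a ratio of 1.13. Granulocyte precursor and erythroid markers had higher sums in the same library, with ratios of 1.42 and 1.40. Kit and Ms4a3 of the first list and Tfrc of the second went the other way. The part of these cells in the Mcm values was not tested.

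Other factors of origin firing went in both directions. Gins2, a subunit of the GINS complex that activates the helicase, stood at 1.19 and 1.96 FPKM on 329 and 537 counts (1.64, 1.42 to 1.88). Its log2 ratio of FPKM + 1 was 0.43, a scale that understates differences of low genes. Gse1 overlaps Gins2 on the opposite strand and held 4299 and 4676 counts. Cdc45, the partner of GINS in the active helicase, stood at 1.82 and 1.61 FPKM (0.883, 0.767 to 1.02). Ufd1 overlaps Cdc45 on the opposite strand and held 2470 and 2095 counts. Cdc6, which loads the Mcm ring, lay below the minimum at 1.02 and 0.524 FPKM on 357 and 184 counts (0.516, 0.430 to 0.619). Cdt1, the other loader, stood at 5.54 and 4.84 (0.873, 0.802 to 0.950). Both of these loader genes were lower. Subunits of the origin recognition complex, which loads the ring with Cdc6 and Cdt1, are in the list of other replication genes. Orc2 was higher at 4.63 and 5.45 FPKM and Orc6 lower at 3.19 and 2.56. Orc3 stood at 6.80 and 6.40 (0.939, 0.890 to 0.991), and the intervals of Orc4 and Orc5 spanned 1. Pcna, the sliding clamp of the replication polymerases and the most abundant gene of the group, stood at 33.3 and 38.1 FPKM on 5340 and 6101 counts (1.14).

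Promoters of the replication role held the E2F motif in 6 of 9 genes with a window (66.7%), against 2.61% of all 27025 genes with a window and 2.26% of all 32851 windows. Mcm6 and Mcm5 are shown as examples with paired, overlapping E2F matches, one from the gene with the highest Mcm ratio and one from a gene near 1. The Mcm6 stretch is at chr1:128359706-128359955 (minus strand) and the Mcm5 stretch at chr8:75109259-75109508 (plus strand), with capitals as above.
Mcm6: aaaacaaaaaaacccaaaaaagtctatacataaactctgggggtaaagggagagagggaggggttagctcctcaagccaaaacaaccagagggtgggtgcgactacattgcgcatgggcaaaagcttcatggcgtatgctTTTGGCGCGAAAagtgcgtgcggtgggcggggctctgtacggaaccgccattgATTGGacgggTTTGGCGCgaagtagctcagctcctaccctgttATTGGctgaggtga
Mcm5: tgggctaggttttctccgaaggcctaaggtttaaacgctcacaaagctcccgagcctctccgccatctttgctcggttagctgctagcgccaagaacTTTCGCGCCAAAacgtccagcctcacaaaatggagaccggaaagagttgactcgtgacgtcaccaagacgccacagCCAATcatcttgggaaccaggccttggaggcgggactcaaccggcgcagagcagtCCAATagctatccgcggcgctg
Both held CCAAT matches on 1 strand or the other (ATTGG on the gene strand is CCAAT on the opposite one). Holding an E2F match did not go with 1 direction of the ratio. Of 8 genes kept with a match 5 were above and 3 below the control (median log2 ratio 0.06, range −0.16 to 0.50), and of 26 without one 10 were above and 16 below (median −0.06). Cdc6 (before the start site) and Cdt1 (after it) each held a match and lay below the control, as given above.

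Genes for the supply of nucleotides showed little difference. Rrm2, the regulated subunit of ribonucleotide reductase, stood at 6.07 and 6.78 FPKM (ratio 1.12, 1.03 to 1.21), and its partner Rrm1 at 3.36 and 3.20 (0.950, 0.897 to 1.01). Tk1, the thymidine kinase of dividing cells, was level at 2.88 FPKM in each library. Tyms, thymidylate synthase, lay below the minimum at 0.848 and 0.709 FPKM (0.837, 0.714 to 0.981). Tk1 overlaps 2 rows on the opposite strand, Gm20708 and Afmid, with 917 and 556 counts in the control, which limits its value.

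Mitosis genes were split, with 5 of 12 above and 7 below the control and a median log2 ratio of −0.08. The proliferation marker Mki67 stood at 10.6 and 10.1 FPKM on 7119 and 6756 counts (ratio 0.951, 0.920 to 0.983). Top2a, the topoisomerase that untangles replicated chromosomes, stood at 5.40 and 5.52 FPKM (1.02, 0.973 to 1.07). Both of these markers of dividing cells differed by less than 1.1-fold, whereas Pcna, given above, stood at 1.14.

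Members of the mitosis role that differed more went both ways. Lower in the second library were Ube2c, the ubiquitin-conjugating enzyme of the anaphase-promoting complex, at 4.29 and 3.13 FPKM (0.729, 0.652 to 0.816), and Bub1b, a kinase-like protein of the spindle checkpoint, at 4.69 and 3.56 (0.761, 0.700 to 0.826). Stmn1, which destabilises microtubules, stood at 10.1 and 8.50 FPKM (0.841, 0.776 to 0.913) and Cenpa, the histone variant of centromeres, at 3.15 and 2.71 (0.859, 0.791 to 0.934). Cdc20, an activator of the anaphase-promoting complex, stood at 7.22 and 6.46, and Elovl1, which overlaps it on the opposite strand, held 3631 and 5107 counts. Higher were Birc5, which encodes survivin, at 2.05 and 2.89 FPKM (1.41, 1.25 to 1.59), and Aurkb, the kinase that works with it in the chromosomal passenger complex, at 2.41 and 3.03 (1.26, 1.11 to 1.42). Bub1, the partner kinase of the spindle checkpoint, lay below the minimum at 0.612 and 1.05 FPKM on 181 and 307 counts (1.70, 1.41 to 2.05). Bub1 and Bub1b thus differed in opposite directions. Near the control were Plk1, a kinase of mitotic entry and exit, at 3.64 and 3.72 FPKM, Tpx2, a spindle assembly factor, at 2.80 and 3.04, and Aurka, the spindle pole kinase it activates, at 2.76 and 2.51.

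The CHR motif was found in 9 of 10 mitosis genes with a window and CCAAT in 9 of 10, against 21.7% and 41.1% of all genes with a window. No mitosis gene held the E2F motif as written here. Bub1b is printed because it had a CHR and a CCAAT match and was one of the lower genes of the role, at chr2:118597961-118598210 on the plus strand.
Bub1b: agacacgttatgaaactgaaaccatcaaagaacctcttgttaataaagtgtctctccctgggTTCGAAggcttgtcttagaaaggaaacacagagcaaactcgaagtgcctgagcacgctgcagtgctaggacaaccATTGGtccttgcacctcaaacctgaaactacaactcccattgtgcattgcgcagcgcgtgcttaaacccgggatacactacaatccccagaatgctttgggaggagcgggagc
Among members of any role, 14 genes kept with a CHR match had a median log2 ratio of −0.06 (5 above, 9 below) and 20 without one a median of 0.03 (10 above, 10 below). A match is a run of letters in a window and does not show that a factor binds there.

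**Figure D4:**
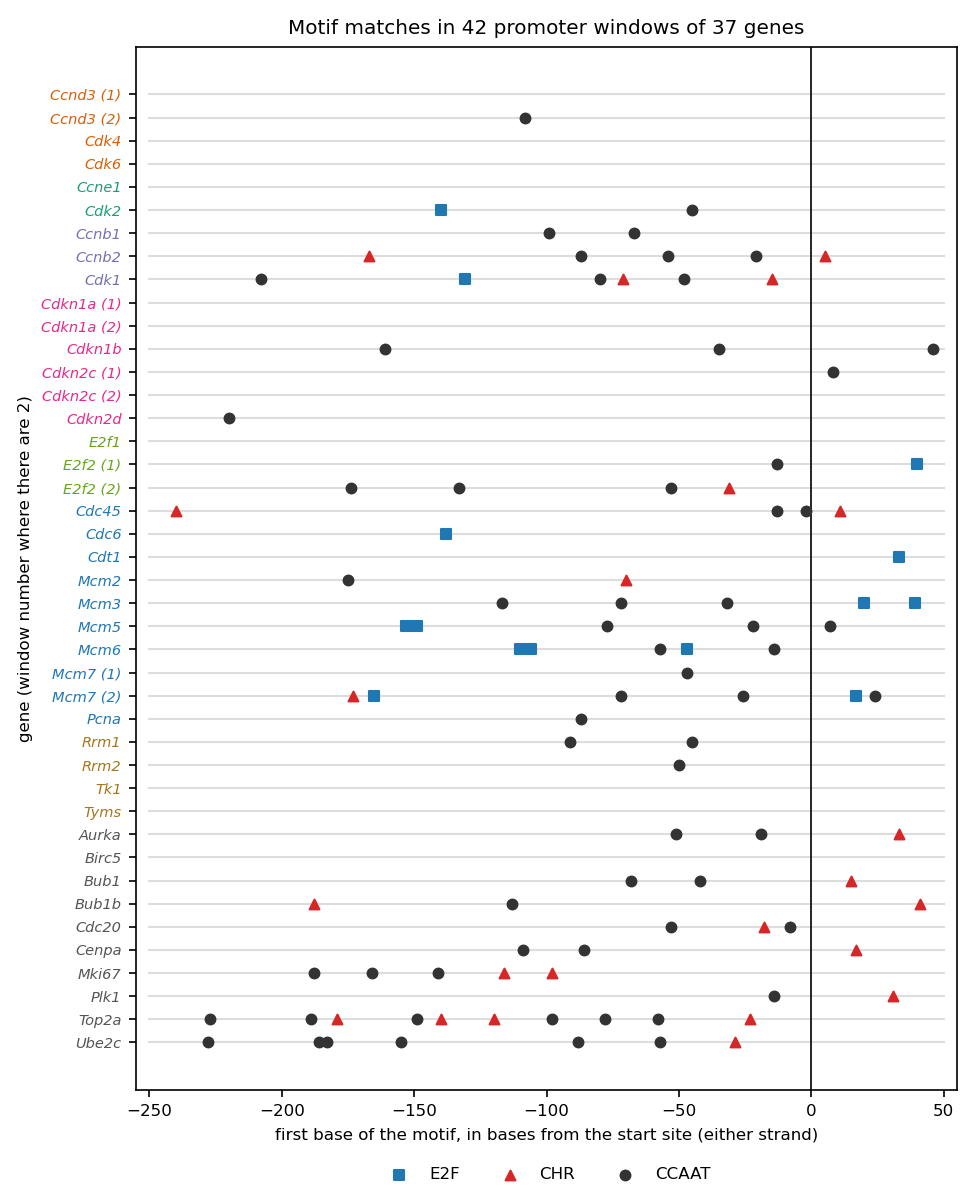
Positions of E2F (squares), CHR (triangles) and CCAAT (circles) matches in 42 RefSeq promoter windows of 37 genes, in bases from the start site, with gene names coloured by role. E2F squares lie mostly in the replication rows and CHR triangles in the mitosis rows, while both windows of Ccnd3 hold neither.

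Other genes of the pathway, in 4 lists that leave out the 48, were compared in the same way. Of 151 symbols 150 were matched and 117 averaged at least 1 FPKM. FPKM + 1 was at least 1.5-fold lower for 2 of them (1.71%) and higher for 0. The background was 3.28% and 3.19% over all genes and 1.6% and 1.53% over protein-coding genes, so the share of lower genes is near that of protein-coding genes. The median log2 ratio was 0.00 for 37 other replication genes (19 above, 18 below the control), −0.05 for 39 other mitosis genes (16 above, 23 below), −0.02 for 32 other G1 regulators and checkpoint genes (14 above, 18 below) and −0.04 for 9 genes of the MYC network (3 above, 6 below). In the replication list the largest differences were at Rpa1, a subunit of the single-strand binding protein (7.46 and 10.7 FPKM), Prim1, a primase subunit (1.18 and 1.78), and Chaf1b, a histone chaperone subunit (1.72 and 1.22). In the checkpoint list they included Chek2, a kinase of the DNA damage response (1.73 and 2.58 FPKM), and Mnat1, a subunit of the CDK-activating kinase (1.27 and 0.895).

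The 2 lower genes were both transcription factors. Foxm1, an activator of mitosis genes such as Ccnb1, Plk1 and Cdc20, stood at 2.08 and 0.489 FPKM on 800 and 191 counts (ratio 0.239, 0.203 to 0.280). The 2 rows that overlap it on the same strand held 0 counts. With a pseudocount of 5 FPKM in place of 1, neither Foxm1 nor Max reached 1.5-fold. The 3 genes just named stood at ratios of 0.815, 1.02 and 0.894. Max, the dimer partner that Myc needs to bind DNA, stood at 36.6 and 23.4 FPKM on 8811 and 5606 counts (0.637, 0.616 to 0.659). Gm47218, which overlaps Max on the same strand, held 241 and 245 counts. Levels of Max were above those of Myc in both libraries.

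Pathway genes below the minimum level were looked at last, and the 5 named here were picked out after their values were seen. Of 33 matched pathway genes with a mean below 1 FPKM, 5 had a counting interval wholly beyond 1.5-fold, 4 of them higher in the second library and 1 lower. Among all genes below 1 FPKM with at least 20 counts over both libraries, as all 33 had, 9.52% were higher and 8.74% lower by that rule, and among protein-coding ones 9.14% and 8.37%. Such intervals were thus common at these levels. Cdkn2b, which encodes the CDK inhibitor p15INK4b, had 0 and 73 counts, at least 24.4-fold higher against a floor of 3 counts in the control library, while the lower limit of its exact 95% interval was 19.3. Its neighbour Cdkn2a, the gene for p16INK4a and p19ARF, had 4 and 25 counts (ratio 6.26, 2.16 to 24.8). Orc1, the largest subunit of the origin recognition complex, had 22 and 68 counts (3.10, 1.89 to 5.26), and Tfdp2, a dimer partner of E2F factors, 212 and 507 (2.40, 2.04 to 2.83). Mycn, a relative of Myc, went the other way with 32 and 0 counts, at least 10.6-fold lower against the same floor, while the upper limit of its interval was a ratio of 0.122. All 5 stood at or below 0.782 FPKM in both libraries.

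**Figure D5:**
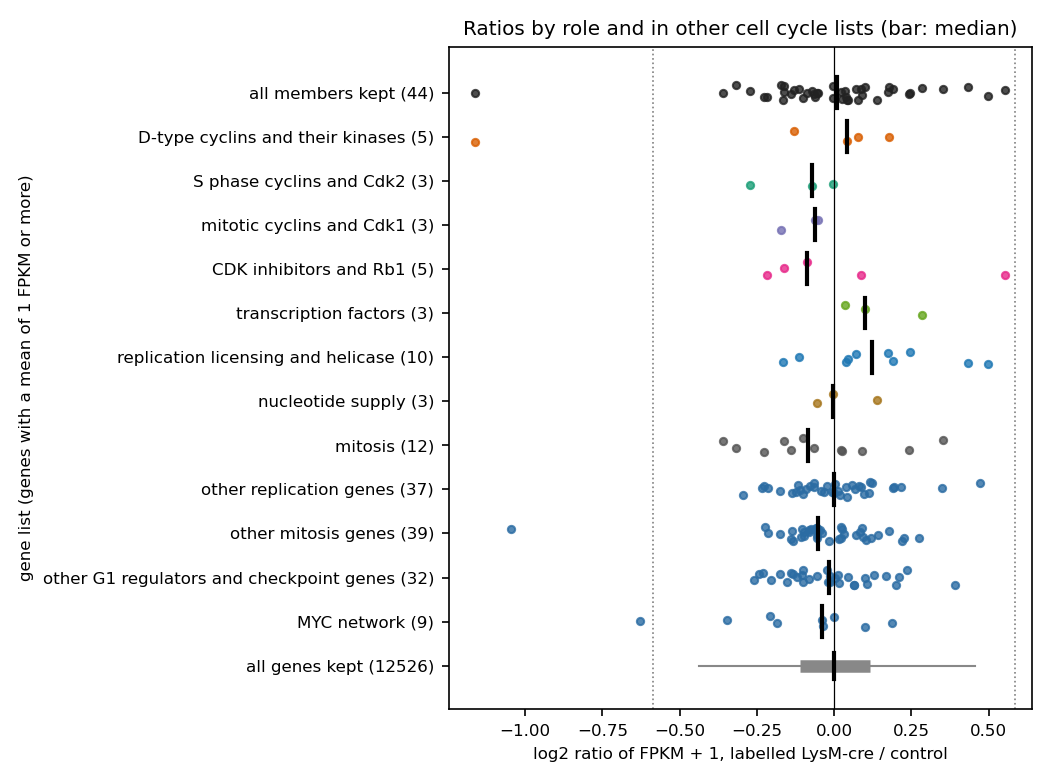
Log2 ratio of FPKM + 1 for each gene kept, by role and for 4 other cell cycle lists, with the median as a black bar and the number of genes in brackets. For all 12526 genes the thick line spans the 25th to 75th percentile and the thin line the 5th to 95th. Points beyond the dotted 1.5-fold lines are Ccnd3, Foxm1 and Max.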

How the data were processed

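Poly(A) RNA of 2 MDSC libraries was sequenced from both ends with dUTP-marked second strands, per the labels' protocols. The submitters' processing notes name build mm10 and the tools StringTie 1.3.4d, HISAT2 2.0.4, cutadapt 1.9, DESeq2 and edgeR. What each did, and how strand and multi-mapping reads were handled, is not given in the sources. Per the file headers, each gene row holds, for every library, a count column and an FPKM column. The deposited counts are whole numbers without normalization, and the deposited FPKM values, scaled by the authors for length and depth, hold 0.0001 where the count was 0, read here as 0. The 8 columns of 4 other libraries were not used.

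Groups follow the genotype labels. For each gene the log2 ratio of FPKM + 1 and the CPM ratio with an exact 95% (Clopper-Pearson) interval, conditional on the sum of both counts, were computed (Python 3.11.15, pandas 2.3.3, numpy 2.4.6, scipy 1.17.1, matplotlib 3.10.9). A mean of at least 1 FPKM was required, and 1.5-fold was the fixed rule of size. Total counts of 59506878 and 59393864 set the precision. The intervals cover counting error only, and they may be too narrow even for that, since mates of a pair and PCR duplicates may count the same molecule more than once. The procedure was tested on simulated data that held counting error alone, which cannot show how it behaves with variation between libraries of a genotype. Any of the 48 genes could be named, as could pathway genes past 1.5-fold, else the 4 with the largest differences per list, and any marker. Orc2, Orc3, Orc4, Orc5 and the genes below 1 FPKM were named after their values were seen. Members, lists and motifs were chosen with earlier results of these data known. Of 225 other list symbols, 220 were matched directly, 3 by synonym and 2 not at all. RefSeq promoter windows (GRCm38.p6) were matched by symbol. The alternatives were pseudocounts, TMM (edgeR 4.0.16) and median-ratio (DESeq2 1.42.0) scaling in R 4.3.3, TPM, other minimums and thresholds, and summed rows.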

Additional observations from a re-analysis of the deposited data

How the results depend on the processing

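No paired analysis was possible because each genotype had 1 library and the labels carry no replicate numbers, and for the same reason no library could be left out. Ccnd3 was at least 1.5-fold lower under every alternative run (log2 ratio from −1.23 to −0.94). The median log2 ratio of the members compared stayed between −0.00 (TPM, 44 genes) and 0.04 (mean of 5 FPKM or more, 22 genes). No member changed sign in 378 values under the alternatives run, but a change of pseudocount or minimum level cannot change a sign. Of these values, 10 moved by more than the distance from the centre to an end of their counting interval on the log2 scale. Genes at least 1.5-fold higher numbered 1 (Gins2) with a pseudocount of 0.1 FPKM. With a 1.2-fold threshold 5 genes were higher and 4 lower. Differences under 1.2-fold were seen for 79.5% of the 44 genes, against 79.2% of all genes and 85.7% of protein-coding genes. The members past that threshold were thus near the share of all genes. Using CPM ratios without a pseudocount, an alternative chosen after seeing the data, 1 gene was higher (Gins2), and without a minimum level 2 were higher (Gins2, Bub1) and 2 lower (Ccnd3, Cdc6). Shares of all genes past 1.5-fold by that ratio, or with a pseudocount of 0.1 FPKM, were not computed. With a minimum of 5 FPKM, the median of CDK inhibitors and Rb1 was −3.1e-05 (4 genes) and that of nucleotide supply 0.14 (1 gene), since fewer genes were left. Foxm1 was no longer counted as lower at a pseudocount of 5 FPKM or a minimum of 5 FPKM, which left 0 lower mitosis genes in the other list. Max was no longer counted at a pseudocount of 5 FPKM, which left 0 lower genes in the MYC network. Without a minimum, 1 gene of the other G1 regulators was higher (Cdkn2b). Depth limits genes under 1000 counts most, where intervals are widest.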
